A study of Mus musculus with 18 samples.

Results

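Serine can be taken up from outside the cell or made from 3-phosphoglycerate, an intermediate of glycolysis, by the enzymes Phgdh, Psat1 and Psph acting in that order. Serine then gives its side-chain carbon to folate, in the cytosol through Shmt1 and in the mitochondrion through Shmt2, and the folate enzymes Mthfd2 and Mthfd1l carry that carbon on to formate, which growing cells use to build purines and thymidylate. Asns makes asparagine, and Slc1a4 and Slc7a10 carry small neutral amino acids such as serine across the cell membrane; Slc7a10 is also used as a surface marker of white fat cells. Several genes of the pathway, Asns among them, are textbook targets of Atf4, the transcription factor of the amino acid response.

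These 10 genes, of 21899 gene IDs measured, were followed in inguinal white adipose tissue, fat from under the skin of the groin, in male C57BL/6J mice. Each mouse had received a subcutaneous injection either of Lewis lung carcinoma cells (LLC), which derive from a mouse lung tumour, or of phosphate-buffered saline (PBS) as the control. Tissue was taken at day 7, named pre-cachexia by the submitters, or at day 21, named cachexia, a wasting of fat and muscle seen with many tumours. There were 4 PBS and 5 LLC libraries at each day, 18 in all, and no transgene, deletion or drug is named for any group. The labels give no age of the mice and do not say whether each library came from 1 mouse, so the spread measured here is that between libraries.

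The 10 genes were selected on their role in the pathway by someone who knew earlier results from these same libraries, among them the LLC and PBS values of Phgdh and Slc7a10 at day 7. All comparisons of these genes are therefore descriptions. They are set beside the share of all genes that met the same criterion, and no support is drawn from them. All 10 passed the filter on low counts in every fit, with 29 to 6200 counts per gene and library. Levels are given as CPM, counts relative to library size on a scale that corrects for library composition (TMM), with SD over libraries. Differences are log2 fold changes with an approximate SE.

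The libraries held between 14566155 and 18969387 counts. All 8 white adipocyte markers were detected in every group, led by Adipoq and Plin1, and their summed level ran from 10738.5 to 25075.6 CPM. Several libraries stood apart in markers of other cells. The sum of 7 skeletal muscle genes was 6272 CPM in day 7 PBS library 3, 1494 CPM in day 7 LLC library 3 and at most 51.0 CPM in the other 7 libraries of that day. At day 21 it was 4476 CPM in PBS library 1, 984 CPM in PBS library 2, 1949 CPM in LLC library 2 and 540.4 CPM in LLC library 5, with at most 123 CPM in the others. The remaining cases were 3 libraries of day 21. Library 1 of LLC had 367 CPM of 7 summed cell cycle genes, against 10.3 to 92.7 CPM in the other 17 libraries, and the lowest adipocyte sum. LLC library 3 had 1125 CPM of 5 summed B cell and lymph node genes, against at most 10.7 CPM elsewhere. PBS library 4 had 1573 CPM of 8 summed macrophage genes, where PBS libraries 1 to 3 had 161 to 277 CPM. Progenitor and fibroblast genes summed to 12308 CPM in LLC library 1 and 13476.5 CPM in PBS library 4. The other day 21 libraries had 2383 to 4926 CPM. In whole tissue, fewer cells of a type and less RNA per cell cannot be told apart.

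The genes differed widely in level. In TPM, which also divides by transcript length and so allows genes to be compared, Phgdh was the most abundant, with a mean of 206 TPM over the 18 libraries. It was followed by Slc7a10 at 172 TPM, Asns at 96.0 TPM and Psat1 at 74.3 TPM. Psph (17.7 TPM) and Shmt2 (16.3 TPM) formed a middle pair, and their ranges over the libraries overlapped. Mthfd2 (4.63 TPM), Shmt1 (4.31 TPM), Mthfd1l (3.27 TPM) and Slc1a4 (2.55 TPM) were the lowest, again with overlapping ranges. The first and last steps of serine synthesis thus had unequal transcript levels, Phgdh being far above Psph. Mthfd1l varied most, by 17.2-fold in CPM between its lowest and highest library.

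**Figure D1:**
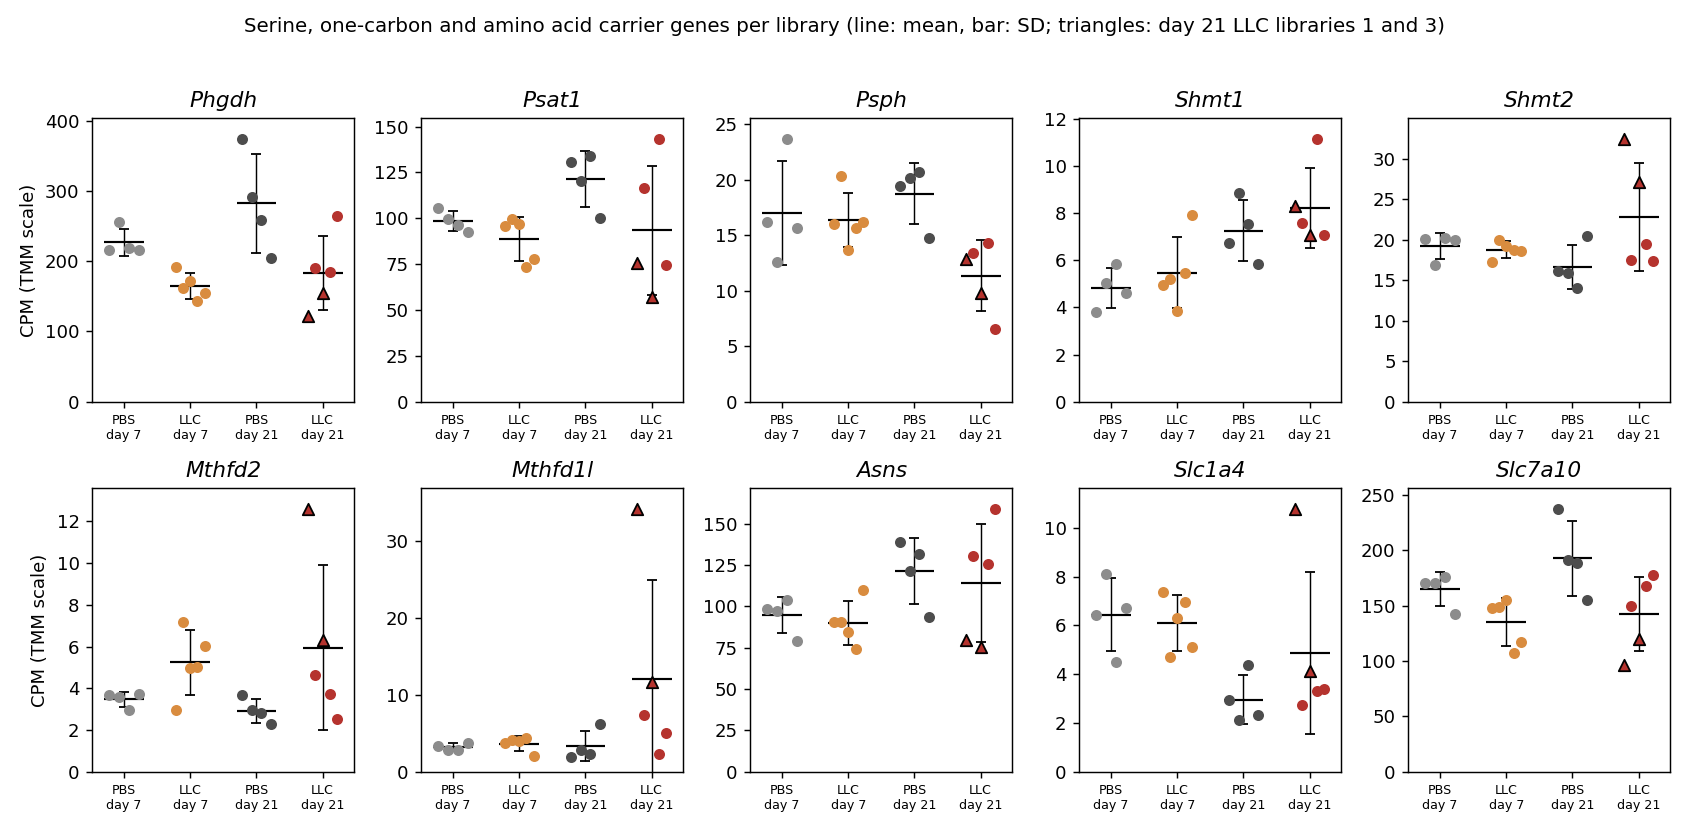
CPM of each gene in the 18 libraries, 1 point per library, by treatment and day; horizontal lines are group means and bars the SD, cut at 0. Triangles are day 21 LLC libraries 1 and 3, which hold the 2 highest Shmt2 and Mthfd1l values of all libraries and the lowest Asns values of day 21.

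Promoter sequence is shown for the members that hold a motif of the amino acid response, since Asns is the classical example of that response. RefSeq promoter windows (GRCm38.p6, 250 bases before to 50 after each transcript start) were matched for 10 of 10 genes, in 11 windows. The composite element TGATGNAAN, bound by Atf4 together with a C/EBP partner, was searched on both strands, as was the cAMP response element TGACGTCA. TGATGNAAN was found in 2 of the 10 genes, Asns and Slc1a4, and in 4.50% of all 27025 genes (3.95% of 32851 windows). TGACGTCA was found in 0 of the 10 and in 2.03% of genes (1.79% of windows). The match begins 23 bases before the RefSeq start used for Asns. In Slc1a4 it begins 5 bases before the RefSeq start and lies on the opposite strand to the gene. The stretches printed, with 20 bases either side of the match, span chr6:7693204-7693252 and chr11:20332690-20332738 (both minus strand). The Asns stretch lies inside the gene span given below, which runs to 7693254, so the 2 sources place the Asns start differently. The stretches are printed 5′ to 3′ along the gene with the matched letters in capitals.
Asns: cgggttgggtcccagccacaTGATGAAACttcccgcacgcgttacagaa
Slc1a4: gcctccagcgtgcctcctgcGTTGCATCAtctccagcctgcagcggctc
A match describes the letters only; the data hold no measure of binding there. Across the 18 libraries Asns and Slc1a4 had a Pearson correlation of -0.63 in log2 CPM (rho -0.61). The libraries differ in group and tissue composition, so this value describes levels only. The part of the motif in the levels of either gene was not tested.

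Of the serine synthesis genes, Phgdh had lower CPM in LLC at day 7 and Psph at day 21. The groups did not overlap in CPM in those comparisons, but they did in TPM. None of the 3 genes passed edgeR at either day. Phgdh (ENSMUSG00000053398, chromosome 3, 98313170 to 98339990) encodes 3-phosphoglycerate dehydrogenase, which commits 3-phosphoglycerate to serine. At day 7 its level was 216, 255, 219 and 216 CPM in PBS libraries 1 to 4. In LLC libraries 1 to 5 it was 192, 162, 171, 143 and 154 CPM. In CPM every LLC library was below every PBS library. In TPM the groups overlapped, with LLC library 1 (206 TPM) above PBS library 1 (203 TPM). The means were 227 ± 19.3 CPM (SD, n = 4) and 164 ± 18.6 CPM (n = 5), a log2 difference of -0.46 ± 0.09, and edgeR gave an adjusted p of 0.334 over all genes; DESeq2 gave 0.00481.

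At day 21 Phgdh was at 373, 291, 258 and 205 CPM in the PBS libraries and at 122, 190.0, 155, 184 and 265 CPM in the LLC libraries. The groups overlapped through PBS library 4, the lowest control, and LLC library 5, the highest tumour library. The log2 difference was -0.64 ± 0.24 (edgeR adjusted p = 0.156), and without LLC libraries 1 and 3 it was -0.42 ± 0.23. PBS library 1, the highest control and the day 21 library with most muscle RNA, also counted: without it the difference was -0.48. Muscle genes as a list lay lower in LLC at day 21 in 7 of 7 cases (median -1.53). Day 7 PBS library 3 had more muscle RNA (6272 CPM), with Phgdh at 219 CPM. Day 21 LLC library 2 had 1949 CPM of muscle genes, with Phgdh at 190.0 CPM. The part of muscle RNA in the Phgdh level was not tested.

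Psat1 (ENSMUSG00000024640, chromosome 19, 15904678 to 15947337), the phosphoserine aminotransferase of the second step, differed little at day 7: 98.5 ± 5.48 CPM for PBS against 88.8 ± 12.1 for LLC (log2 -0.15 ± 0.10). At day 21 PBS libraries held 131, 120.2, 134 and 100.2 CPM, and LLC libraries held 75.6, 116, 57.1, 143 and 74.8 CPM. Of the LLC libraries, 3 fell below all controls and LLC library 4 stood above them all, so the log2 difference of -0.40 ± 0.25 came with a wide spread. Without LLC libraries 1 and 3 it was -0.14 ± 0.22.

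Psph (ENSMUSG00000029446, chromosome 5, 129765558 to 129787449), the phosphatase that releases free serine, did not separate the groups at day 7, at 17.0 ± 4.70 CPM for PBS against 16.4 ± 2.41 for LLC. At day 21 it was at 19.5, 20.1, 20.7 and 14.7 CPM in PBS and at 12.8, 13.4, 9.77, 14.3 and 6.54 CPM in LLC. In CPM all LLC libraries were below all PBS libraries, by a narrow gap between PBS library 4 and LLC library 4. In TPM the groups overlapped, with LLC library 1 (17.9 TPM) above PBS library 4 (15.3 TPM). The log2 difference was -0.74 ± 0.23 (edgeR adjusted p = 0.112; DESeq2 0.0365), and it stood at -0.73 ± 0.28 without LLC libraries 1 and 3. The change of the tumour effect between days was -0.66 ± 0.30 on the log2 scale (edgeR adjusted p = 0.249). The span of Psph shares 452 bases with Cct6a on the opposite strand; Cct6a had 9.50 times the counts of Psph, and no strand-marking step is stated, so reads in the shared stretch cannot be told apart.

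The 10 genes were next counted against all genes. At day 7, 0 of the 10 genes passed edgeR's threshold (adjusted p under 0.05), beside 0.00744% of all genes tested; 3 had an unadjusted p under 0.05 (Phgdh, Mthfd2 and Slc7a10), beside 8.51% of genes. DESeq2 called 1, Phgdh, beside 0.595% of genes. In CPM, LLC and PBS libraries did not overlap for 1, again Phgdh, beside 2.48%. At day 21 edgeR called 0 of 10, beside 0.0885%; 5 had an unadjusted p under 0.05 (Phgdh, Psph, Mthfd2, Mthfd1l and Slc7a10), beside 23.3%. DESeq2 called 1, Psph, beside 11.5%, and the groups did not overlap in CPM for 1, Psph, beside 9.57%. The share of all genes called at day 21 hung on 1 library: without PBS library 4 edgeR called 1277 of 13726 genes, 9.30%, and still 0 of the 10. The median log2 difference of the 10 genes was -0.06 at day 7 and 0.02 at day 21, where that of all genes was 0.00453 and 0.02. In the authors' deposited table none of the 10 had an FDR under 0.05 at either day; the lowest was that of Mthfd1l at day 21, 0.0507.

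**Figure D2:**
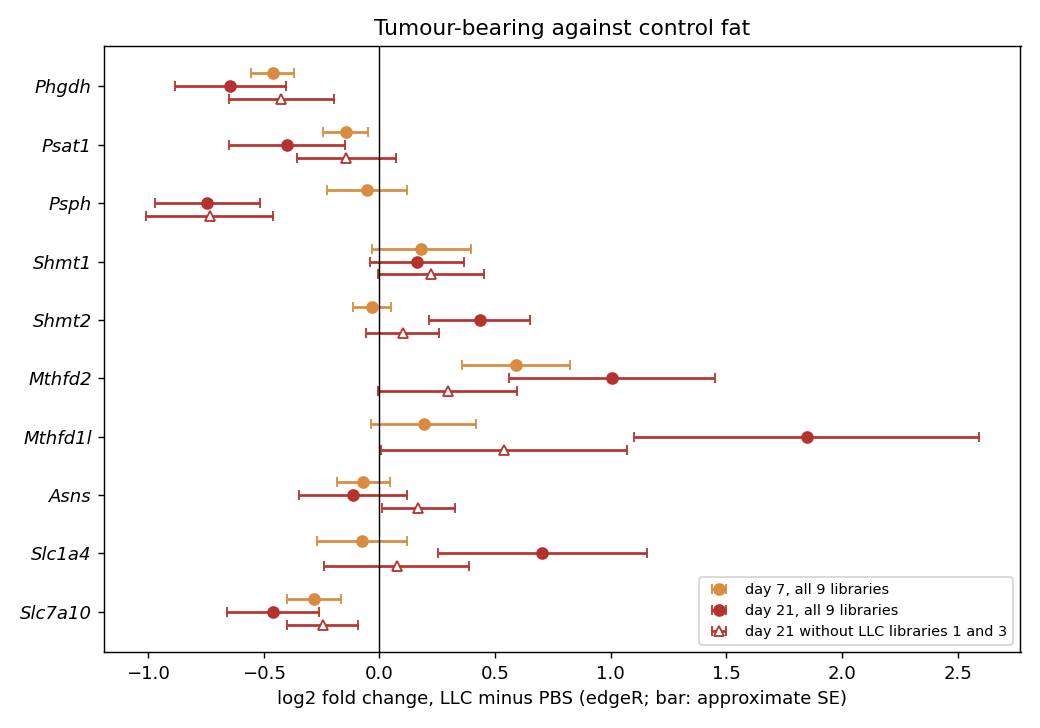
Log2 fold change of LLC over PBS for each gene at day 7 and day 21, with bars of 1 approximate SE; open triangles repeat day 21 without LLC libraries 1 and 3. Psph stays near -0.74, while Mthfd1l moves from 1.85 to 0.54 and Slc1a4 from 0.70 to 0.07.

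None of the folate genes among the 10 passed edgeR at day 21, and the higher means of Mthfd1l, Mthfd2 and Shmt2 in LLC rested largely on LLC libraries 1 and 3. Mthfd1l (ENSMUSG00000040675, chromosome 10, 3973118 to 4167081) encodes the mitochondrial synthetase that releases formate. At day 7 the mean was 3.23 ± 0.463 CPM for PBS against 3.66 ± 0.944 for LLC. At day 21 PBS libraries had 1.99, 2.77, 2.28 and 6.27 CPM, and LLC libraries had 34.2, 7.37, 11.7, 2.34 and 5.0 CPM. LLC library 1 was the highest by far, LLC library 3 came next, and LLC libraries 4 and 5 lay within the range of the controls. The log2 difference was 1.85 ± 0.74 (edgeR adjusted p = 0.179); it was 1.01 without LLC library 1 and 0.54 ± 0.53 without LLC libraries 1 and 3. The change of this difference from day 7 to day 21 was 1.68 ± 0.80, and 0.78 without day 21 LLC library 1.

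Mthfd2 (ENSMUSG00000005667, chromosome 6, 83305691 to 83325908), the mitochondrial methylene-tetrahydrofolate dehydrogenase that is scarce in most resting adult tissues, was also unevenly distributed at day 7. PBS libraries had 3.67, 3.59, 2.96 and 3.74 CPM and LLC libraries 2.97, 7.20, 4.97, 5.04 and 6.05 CPM. Of the 5 LLC libraries 4 exceeded every control, and LLC library 1 was as low as the lowest control. The log2 difference was 0.59 ± 0.23 (edgeR adjusted p = 0.553). Beside it, 7 of 7 cell cycle genes were higher in LLC at day 7 (median 0.64, 0 called) and 4 of 5 beige adipocyte genes (median 1.39, 1 called). Summed cell cycle genes were at 43.9, 79.9, 32.4, 92.7 and 37.9 CPM in LLC libraries 1 to 5. The PBS libraries held 29.1 to 41.6 CPM. LLC library 2 was the highest for Mthfd2, and LLC library 4 for the cell cycle sum. LLC libraries 3 and 5 exceeded every control in Mthfd2 but lay within the PBS range of the cell cycle sum. The part of these cells in the Mthfd2 level was not tested. At day 21 the PBS libraries had 3.67, 2.96, 2.80 and 2.27 CPM and the LLC libraries 12.6, 4.62, 6.30, 3.74 and 2.53 CPM. In CPM the same number of LLC libraries, 4 of 5, exceeded all controls, narrowly so for LLC library 4 (3.74 CPM against 3.67 in PBS library 1). In TPM only LLC libraries 1 and 3 exceeded the highest control, PBS library 3 (4.15 TPM). The log2 difference of 1.01 ± 0.45 (edgeR adjusted p = 0.213) was 0.58 without LLC library 1 and 0.29 ± 0.30 without LLC libraries 1 and 3.

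Shmt2 (ENSMUSG00000025403, chromosome 10, 127517123 to 127522444), the mitochondrial serine hydroxymethyltransferase, was even across day 7, at 19.2 ± 1.59 CPM for PBS against 18.8 ± 1.01 for LLC. At day 21 it was at 16.1, 15.9, 14.1 and 20.4 CPM in PBS and 32.4, 17.5, 27.1, 19.5 and 17.4 CPM in LLC. LLC libraries 1 and 3 held the 2 highest values of the 18 libraries, and the other 3 LLC libraries lay between PBS libraries 1 and 4. The log2 difference of 0.43 ± 0.22 became 0.10 ± 0.16 without those 2.

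Shmt1 (ENSMUSG00000020534, chromosome 11, 60788104 to 60811718), the cytosolic counterpart, did not follow Shmt2. LLC and PBS differed by 0.18 ± 0.21 at day 7 and by 0.16 ± 0.20 at day 21 on the log2 scale. By day its means were further apart, without passing edgeR: 4.82 ± 0.855 CPM in PBS at day 7 against 7.26 ± 1.29 CPM at day 21, and 5.48 ± 1.51 against 8.24 ± 1.70 CPM in LLC (edgeR adjusted p = 0.144 and 0.122). The days overlapped in both treatments, and on log2(TPM + 1) the PBS difference was 0.25 in place of 0.59. The 2 isoenzymes had a correlation of 0.04 across the 18 libraries. Shmt1 shares 184 bases with Smcr8 on the opposite strand, which had 7.52 times its counts, so the same limit on strand applies.

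Asns (ENSMUSG00000029752, chromosome 6, 7675169 to 7693254), asparagine synthetase, had similar means in LLC and PBS at both days. At day 7 the log2 difference was -0.07 ± 0.11. At day 21 PBS libraries had 139, 122, 132 and 93.5 CPM and LLC libraries had 79.4, 130.3, 75.4, 126 and 159 CPM. In CPM LLC libraries 1 and 3 were the lowest of the day and LLC library 5 the highest. The difference turned from -0.11 ± 0.23 to 0.17 ± 0.16 without LLC libraries 1 and 3.

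Slc1a4 (ENSMUSG00000020142, chromosome 11, 20302180 to 20332713), a carrier of serine, alanine and other small amino acids, had lower values at day 21 than at day 7 in PBS. PBS libraries had 6.42, 8.13, 4.50 and 6.72 CPM at day 7 and 2.95, 2.14, 4.37 and 2.33 CPM at day 21. The days did not overlap, though PBS library 3 of each day nearly met. The log2 difference within PBS was -1.13 ± 0.38 (edgeR adjusted p = 0.106; DESeq2 0.0475), and it was -1.12 ± 0.24 (edgeR adjusted p = 0.0162) in the fit without day 21 LLC libraries 1 and 3, where the SE was smaller. In the same comparison 8 of 8 progenitor and fibroblast markers were lower at day 21 (median -1.33, 3 called by edgeR), as were 8 of 8 macrophage markers (median -1.0, 0 called). Day 21 PBS library 4 stood apart, with 13476.5 CPM of summed progenitor and fibroblast markers and 1573 CPM of macrophage markers. PBS libraries 1 to 3 had 2383 to 3729 CPM and 161 to 277 CPM. Slc1a4 in PBS library 4 was at 2.33 CPM. The part of these cells in the Slc1a4 level was not tested. LLC libraries had 7.36, 4.73, 6.32, 6.98 and 5.13 CPM at day 7 and 10.8, 2.75, 4.12, 3.29 and 3.40 CPM at day 21. At day 21, 4 of the 5 LLC libraries were below all LLC libraries of day 7, and LLC library 1 was above them all. The LLC difference by day was -0.32 ± 0.33 with all libraries and -0.95 ± 0.26 (edgeR adjusted p = 0.0358) without LLC libraries 1 and 3. Those libraries were left out after seeing the data, and LLC library 1 is the one that went the other way. The adjusted p values of 0.0162 and 0.0358 therefore give no support. In that fit edgeR called 9.97% of all genes within PBS and 8.46% within LLC. The LLC over PBS difference at day 21, 0.70 ± 0.45, was 0.22 without LLC library 1 and 0.07 ± 0.31 without both.

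Slc7a10 (ENSMUSG00000030495, chromosome 7, 35186385 to 35201114), the sodium-independent carrier of serine, glycine and alanine, followed Phgdh. At day 7 PBS libraries had 171, 170.5, 176 and 143 CPM and LLC libraries had 148, 149, 155, 107 and 117 CPM. PBS library 4 lay inside the LLC range, and the other controls lay above it (log2 -0.28 ± 0.12, edgeR adjusted p = 0.560). At day 21 PBS libraries had 237, 191, 189 and 155 CPM and LLC libraries had 96.4, 149.6, 120.2, 168 and 178 CPM. In CPM LLC libraries 1 and 3 were lowest here as for Asns and Phgdh. The log2 difference of -0.46 ± 0.20 (edgeR adjusted p = 0.201) was -0.24 ± 0.15 without them. The span of Slc7a10 shares 1088 bases with Lrp3 on the opposite strand, which had 0.173 times its counts.

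Day 21 LLC libraries 1 and 3 therefore had a common profile in CPM. Phgdh, Slc7a10 and Asns were at their lowest of the LLC group in these 2 libraries, and Shmt2, Mthfd2, Mthfd1l and Slc1a4 at their highest. In TPM the high values held, but the low values did not all hold. Phgdh was then lowest in LLC library 4 (130 TPM), and Slc7a10 in library 3 (183 TPM) lay above LLC libraries 2 and 4. Asns in library 1 (91.9 TPM) lay above library 4 (83.8 TPM). LLC libraries 1 and 3 differ from the others in the markers given above, and not in the same way. Library 1 had 367 CPM of cell cycle genes and 2.80 CPM of B cell and lymph node genes, and library 3 had 37.1 and 1125 CPM. Library 1 also had the highest macrophage sum of the 18 libraries, 2107 CPM. Its progenitor and fibroblast sum was 12308 CPM, against 2671 to 4926 CPM in the other LLC libraries of day 21. White adipocyte markers summed to 10738.5 CPM in library 1 and 14926 CPM in library 3, against 16009.5 to 24171.2 CPM in LLC libraries 2, 4 and 5. Over the day 21 comparison 7 of 7 cell cycle genes and 8 of 8 macrophage genes were higher in LLC (medians 1.81 and 0.93 on the log2 scale) and 7 of 8 adipocyte genes lower (median -0.25), with 0 of these called by edgeR. The cell cycle sum exceeded all controls (20.1 to 37.9 CPM) in LLC library 1 only. It lay inside that range in LLC libraries 2 and 3 (32.8 and 37.1 CPM) and below it in LLC libraries 4 and 5 (10.3 and 12.3 CPM). In macrophage sum all LLC libraries exceeded PBS libraries 1 to 3, but only LLC library 1 exceeded PBS library 4 (1573 CPM). Epithelial markers summed to 55.8 CPM in library 1, 5.70 CPM in library 3 and 1.46 to 14.5 CPM in the other LLC libraries. The part of these cell populations in the levels of the 10 genes was not tested.

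**Figure D3:**
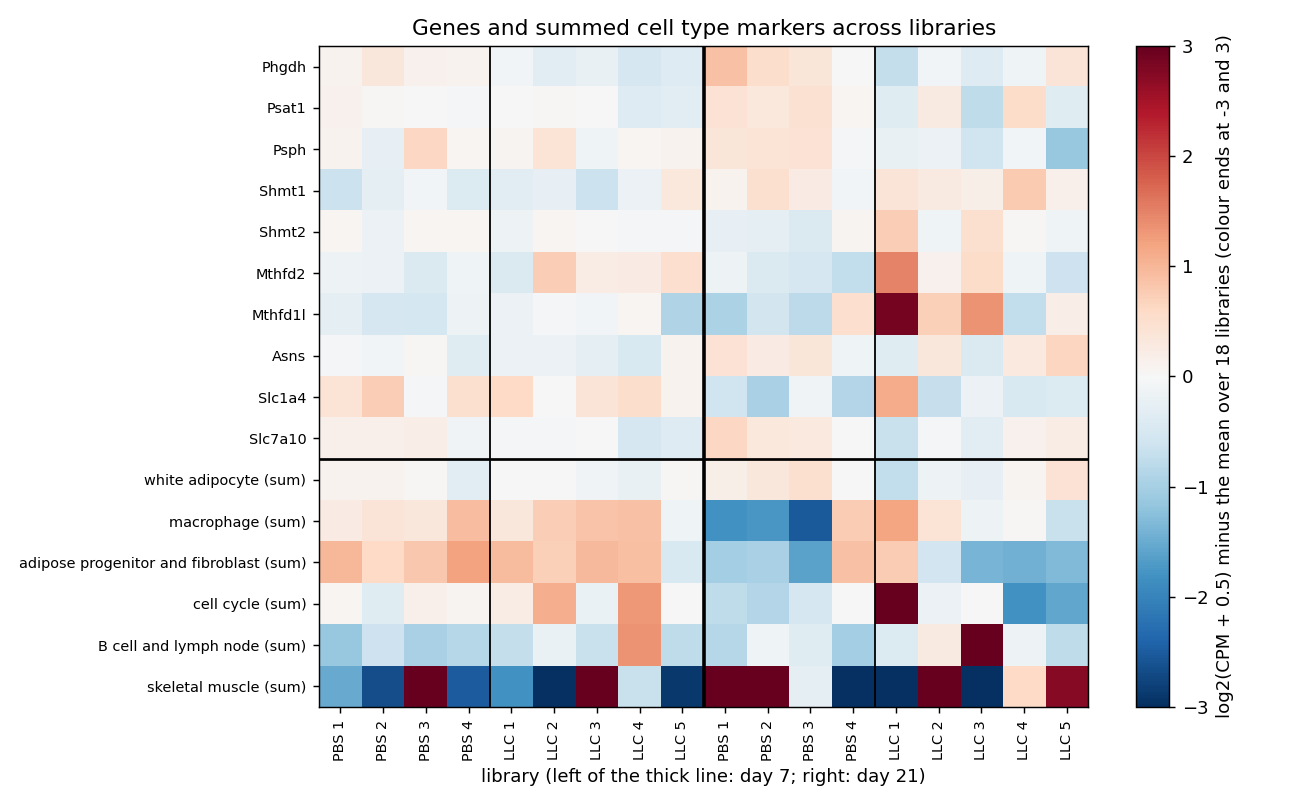
Rows are the 10 genes (above the line) and summed markers of 6 cell classes (below), columns the 18 libraries; colour is log2(CPM + 0.5) minus the row's mean, with the darkest colours at 3 log2 units either side. Day 21 LLC library 1 is high in Mthfd1l, Mthfd2, Slc1a4 and cell cycle genes, and LLC library 3 in Mthfd1l and in B cell and lymph node genes.

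Between days within a treatment, the genes shared few differences. The 2 days were deposited as separate tables, and any step done separately for each day cannot be told apart from the day. Within PBS edgeR called 0 of the 10 genes, beside 3.21% of all genes; DESeq2 called 1 (Slc1a4), beside 7.94%, and the days did not overlap for 1 (Slc1a4), beside 16.3%. An unadjusted p under 0.05 was reached by 2, Shmt1 (log2 0.59 ± 0.22) and Slc1a4, beside 20.4% of genes. Within LLC edgeR called 0, beside 1.77%; DESeq2 called 1, Mthfd1l (log2 1.72 ± 0.53), beside 5.82%, and the days overlapped for all 10, where 3.33% of genes did not overlap. There 3 genes had an unadjusted p under 0.05, Psph (-0.53 ± 0.20), Shmt1 (0.59 ± 0.20) and Mthfd1l, beside 18.6% of genes. For the change in the LLC over PBS difference from day 7 to day 21, edgeR called 0, beside 0.415%, and DESeq2 0, beside 5.17%; Psph had an unadjusted p under 0.05, beside 18.2% of genes. PBS at day 21 enters both the comparison with LLC and that with day 7, so the values of these comparisons are not independent.

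Across the 18 libraries the gene most closely tied to Phgdh among the 10 was Slc7a10. The values below are Pearson correlations of log2 CPM over the same 18 libraries, which share group and tissue composition, and are descriptions. Phgdh and Slc7a10 had r = 0.92 (rho 0.91), 0.90 without day 21 LLC libraries 1 and 3, and 0.87 for deviations from the group means. Slc7a10 was the third most similar of 13974 genes to Phgdh, after Bag6 (0.95) and Babam2 (0.93), and before Cacng7 (0.92) and Atxn10 (0.91). Phgdh in turn was the second for Slc7a10, after Alad (0.93) and before Thnsl2 (0.92), Babam2 (0.91) and Hsd3b7 (0.90). The other synthesis enzymes were further away: Phgdh had r = 0.57 with Psat1 and 0.17 with Psph.

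Psph was most like Fdps (0.92), Vac14 (0.89), Cyb5b (0.89), Sqle (0.87) and Idh1 (0.87); Fdps and Sqle are enzymes of cholesterol synthesis. Asns was most like Dock9 (0.95), Clmn (0.94), Chp1 (0.93), Eci2 (0.93) and Sqor (0.92), and had r = 0.70 with Slc7a10 and 0.67 with Phgdh. Mthfd1l was most like Smc4 (0.89), Ttc39b (0.89), Tnfsf13b (0.88), Gpr176 (0.88) and Cenpa (0.87); Smc4 and Cenpa serve chromosome condensation and the centromere. Shmt2 and Mthfd1l had r = 0.82, but 0.35 without day 21 LLC libraries 1 and 3, so that relation rests on those libraries. Phgdh and Mthfd2 ran opposite to each other, with r = -0.73 and -0.61 without the same libraries.

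**Figure D4:**
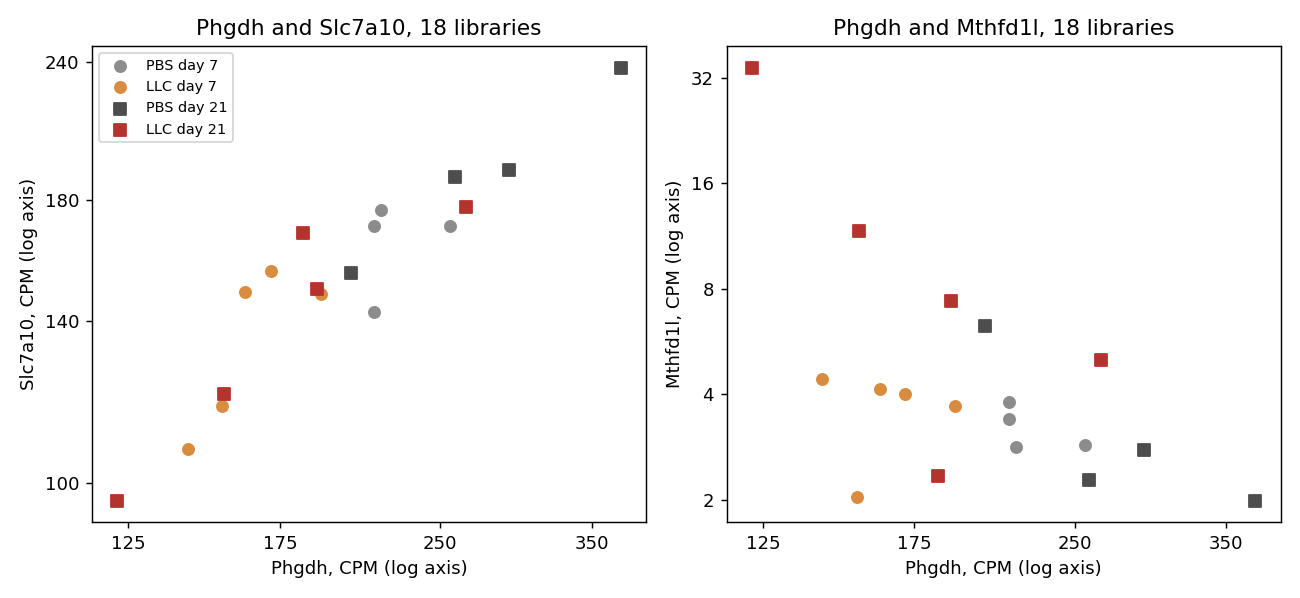
Each point is 1 of the 18 libraries, on log axes of CPM, with Phgdh on the horizontal axis and Slc7a10 (left) or Mthfd1l (right) on the vertical. Phgdh and Slc7a10 lie along 1 line through all 4 groups (r = 0.92), whereas Mthfd1l is set apart by the day 21 LLC libraries at 34.2 and 11.7 CPM.

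The wider pathway was read from 7 lists of 132 genes. At day 7 edgeR called 0 of the 118 that could be tested, with 59 higher and 59 lower in LLC; DESeq2 also called 0, and 9 (7.63%, beside 8.51% of all genes) reached an unadjusted p under 0.05. At day 21 edgeR called 0 of 120, with 48 higher and 72 lower; DESeq2 called 23 (19.2%, beside 11.5% of all genes), and 37 (30.8%, beside 23.3%) reached an unadjusted p under 0.05. For the difference between days edgeR called 0 of 122 (31, or 25.4%, with an unadjusted p under 0.05, beside 18.2% of all genes; DESeq2 8, or 6.56%, beside 5.17%).

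The glycine cleavage and serine breakdown genes were the most uniform list at day 21. All 12 tested members lay lower in LLC, with a median of -0.76, where the same list had a median of 0.01 over 10 tested members at day 7. Sdsl, a serine dehydratase homologue, averaged 6.32 ± 1.75 CPM for PBS against 2.18 ± 0.783 for LLC (log2 -1.55 ± 0.32, edgeR adjusted p = 0.0638; DESeq2 0.000487). Amt, the aminomethyltransferase of glycine cleavage, differed by -0.86 ± 0.24 and Glyctk, glycerate kinase, by -0.99 ± 0.28. These 12 genes were also all higher at day 21 than at day 7 within PBS, by a median of 0.44, and Glyctk passed edgeR there (1.04 ± 0.25, adjusted p = 0.0345). Both comparisons use the same day 21 PBS libraries. The list of glycolysis genes, which runs through 3-phosphoglycerate and on to pyruvate, had 10 of 13 lower in LLC at day 21 (median -0.43). Pfkl had the smallest p there (-0.71 ± 0.21). At day 7, 6 of 13 were lower.

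The list of Atf4 and its targets outside the 10 genes, which also holds Eif2ak3 and Eif2ak4, showed no common direction. At day 7, 16 of 29 were higher (median 0.02), and at day 21, 10 of 29 (median -0.11). Vldlr (-0.80 ± 0.19), Nupr1 (-0.58 ± 0.16) and Sesn2 (-0.59 ± 0.17) had the smallest p at day 21, with edgeR adjusted p of 0.0751, 0.0986 and 0.104. Between days edgeR called Chac1 within PBS (2.08 ± 0.49, adjusted p = 0.0321) and, within LLC, Trib3 (0.80 ± 0.20, adjusted p = 0.0494) and Nupr1 (-0.56 ± 0.14, adjusted p = 0.0489), so these targets moved in both directions.

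The list of other amino acid carriers was spread widely at day 21, with 11 of 20 higher and 9 lower. Slc38a2, a sodium-coupled carrier of small neutral amino acids, averaged 86.4 ± 10.4 CPM for PBS against 131 ± 19.3 for LLC (0.57 ± 0.14, edgeR adjusted p = 0.0787), and Slc1a5, of the same family as Slc1a4, lay lower by log2 -0.92 ± 0.23 (adjusted p = 0.0812). Slc7a6 was lower at day 21 than at day 7 within LLC (-0.43 ± 0.08, edgeR adjusted p = 0.0222). Of the folate cycle genes outside the 10, 15 of 19 lay lower at day 7 and 8 of 19 at day 21. Aldh1l1, a cytosolic enzyme that oxidises the folate one-carbon unit, had the smallest p at day 7 (-0.24 ± 0.09) and differed by -0.81 ± 0.30 at day 21. Mtr, methionine synthase, was lower at day 21 within PBS (-0.50 ± 0.10, edgeR adjusted p = 0.0225). These 6 calls between days depended on single libraries. Of 18 fits that each left out 1 library, the call was lost in 5 for Mtr, 7 for Glyctk, 6 for Chac1, 3 for Slc7a6, 16 for Nupr1 and 15 for Trib3. The highest edgeR adjusted p lay between 0.0599 (Slc7a6, without day 7 LLC library 1) and 0.131 (Glyctk, without day 7 PBS library 4), and every log2 difference kept its sign.

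**Figure D5:**
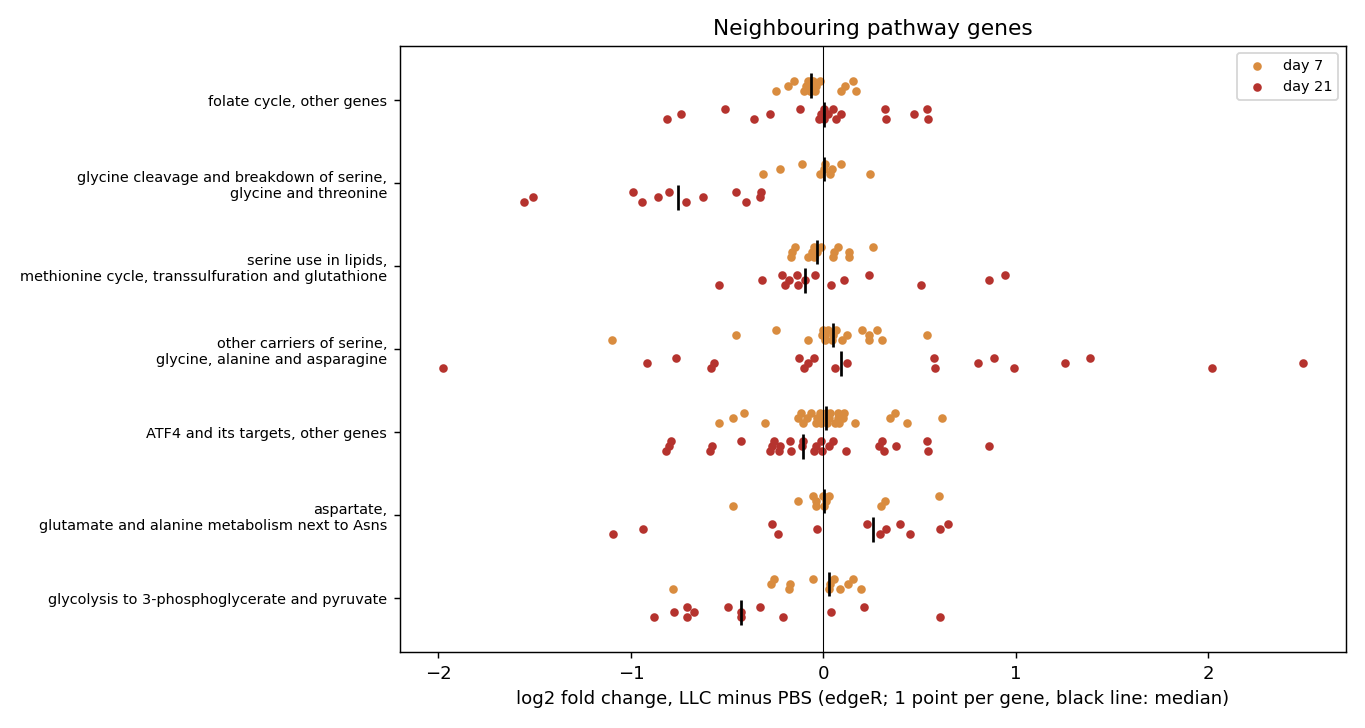
Log2 fold change of LLC over PBS, 1 point per gene of 7 related lists, at day 7 and day 21, with the median as a black line. The list of glycine cleavage and breakdown lies wholly below 0 at day 21 (median -0.76), and the other lists straddle 0 at both days.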

How the data were processed

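RNA of 18 libraries was sequenced after poly(A) enrichment with the NEBNext Ultra kit, per the labels' protocols. The deposited values are counts and TPM per gene, 1 table per day; fastp 0.23.0, RSEM and the build GRCm38 are named in the submitters' processing notes. Which aligner and annotation release were used is not given in the sources used here. All deposited count values were whole and were taken for expected counts that the authors estimated with RSEM and rounded. The TPM were scaled by the authors and entered levels and alternatives only. The deposited log2 ratio and FDR (adjusted p-value) are the authors' own.

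Counts were compared with edgeR 4.0.16 (R 4.3.3): TMM, filterByExpr, quasi-likelihood tests, two-sided, Benjamini-Hochberg over all genes tested at 0.05. LLC and PBS were compared within each day on 9 libraries; the other comparisons came from 1 fit of 18 libraries with 4 group means. The SE is the log2 fold change divided by the root of F. Samples of a group differed beyond sampling noise (lowest chi-square per gene 15.2 over 32 pairs). Correlations used log2 CPM with a prior count of 2. The fitting code was tested on simulated data. Alternatives were DESeq2 1.42.0, its size factors, limma 3.58.1 on log2(TPM + 1) and log2(TPM + 0.1), other filters and left-out libraries.

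The titles give PBS and LLC the same numbers 1 to 4. Same-numbered libraries deviated together at day 7 (r = 0.21, 0.12, 0.53 and 0.19) but not at day 21 (-0.27, 0.30, 0.09 and -0.16). The 10 genes and the 7 lists were chosen with earlier results of these data known. Named list genes are those past the threshold in a comparison or, failing any, the 3 with the smallest p per list, printed in part. Where a symbol had several IDs (Gcat, Ddit3, Aldoa) the ID with most counts was used. Coordinates are from GENCODE on GRCm38.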

Additional observations from a re-analysis of the deposited data

Results flagged for a closer look

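In 40 groups of 4 or 5 libraries (10 genes in 4 groups), 3 had a library far from the rest by Dixon's criterion, and chance gives about 1 in 20. Phgdh was at 255 CPM in day 7 PBS library 2, where the other 3 controls lay between 216 and 219 CPM. Shmt2 was at 16.9 CPM in that library, against 19.9 to 20.1 CPM in the others. Slc1a4 was at 10.8 CPM in day 21 LLC library 1, against 2.75 to 4.12 CPM in the other 4.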

How the results depend on the processing

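No alternative gave edgeR or limma calls among the 10 genes at day 7 or for the difference between days. Elsewhere the main count was 0 of 10. DESeq2 called 1 at day 7, 1 at day 21, 1 between days within PBS and 1 within LLC. One fit of all 18 libraries called 3 at day 21 (Psph, Phgdh and Mthfd1l), beside 19.0% of all genes. Leaving out 1 library at a time gave 0 to 1 between days within PBS and 0 to 1 within LLC; the 1 was Slc1a4, without day 21 LLC library 1. Without day 21 PBS library 4 and LLC libraries 1 and 3 there were 5 within PBS (beside 24.4% of all genes) and 2 within LLC (12.8%), and without only LLC libraries 1 and 3, chosen after seeing the data, 1 and 2 (9.97% and 8.46%). With the replicate block (LLC libraries 5 left out) 0 of 10 genes and 0 of the 132 list genes were called at day 7, at day 21 and for the difference, so the paired fit changed no call. Of the 132 list genes, 118 to 122 were tested in the main fits. DESeq2 called 23 of them at day 21, 8 for the difference, 12 between days within PBS and 8 within LLC. Its shares of all genes were 11.5%, 5.17%, 7.94% and 5.82%. The main edgeR fits called 0, 0, 3 and 3 list genes. Leaving out 1 library at a time gave 0 to 15, 0 to 14, 0 to 16 and 0 to 10. The first 3 maxima came without day 21 PBS library 4, where 9.3%, 8.64% and 12% of all genes were called. Leaving out day 21 PBS library 4 and LLC libraries 1 and 3 gave 10, 13, 41 and 19. The shares of all genes there were 7.18%, 8.49%, 24.4% and 12.8%. Without LLC libraries 1 and 3 alone the last 2 counts were 18 and 14 (beside 9.97% and 8.46% of all genes). They were 0 and 0 without the day 7 libraries 3 (0.907% and 0.00708%), and 5 and 1 with no filter (1.77% and 0.758%). The filter at a mean of 1 CPM gave 5 within PBS (beside 3.5% of all genes). One fit of all 18 libraries gave 33 at day 21 (beside 19.0%). Within LLC both limma fits on TPM gave 0 and 0 (beside 0.193% and 0.172%), and leaving out LLC libraries 5 gave 0 (beside 0.46%). The causes were not tested. On the TPM scale the median of all genes at day 21 was 0.13 against 0.02 in the main fit. The log2 difference kept its sign in all alternatives for 8 of 10 genes at day 7 (not Slc1a4 and Psph) and 8 at day 21 (not Slc1a4 and Asns). The sign was less stable elsewhere. It was kept for 4 of 10 genes in the difference between days, 7 between days within PBS and 5 within LLC. The lowest count of the 10 genes in a library was 29 (Mthfd1l), which limits the precision of the scarce genes.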
